A study of Mus musculus with 2 samples.

Results

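Memory-like helper CD4 T cells, with few type 1 effector genes detected, made up a small share of the barcodes kept from MB49 tumours. They were 280 of 6987 kept barcodes, 132 from the female library and 148 from the male one. Kept barcodes passed limits on detected genes and mitochondrial content only, so some, such as the tumour-like barcodes below, were not T cells. A base cell had at least 1 unique molecular identifier (UMI) of Cd3e and 1 of Cd4 or Cd40lg, none of Foxp3, Cd8a, Cd8b1 or Lyz2, and at most 25000 UMIs. Base cells numbered 267 and 244 in these libraries. A base cell was counted as memory-like when fewer than 2 of 6 type 1 effector genes (Klrg1, Il12rb2, Il18rap, Ifng, Nkg7 and Cxcr6) had a UMI, and otherwise as a type 1 effector CD4 cell (135 female and 96 male cells). The members were chosen by their own counts, so the levels of these genes are descriptions of the choice.

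MB49 is a transplanted mouse bladder carcinoma line, and tumours were taken on day 14 from C57BL/6J mice aged 12 to 14 weeks, with no further treatment named. There was 1 droplet library of transcript starts per sex, and how many mice each held is not given in the sources used here. With a single library per sex there is no replicate error, so no difference was tested, and all intervals (95%, exact) cover counting error only. Paired values below give the female library first and the male library second. The labels state a sort of viable CD4+ T cells, yet 1850 female and 1605 male cells held at least 2 UMIs of Cd8a and Cd8b1 and passed the same Cd3e, Lyz2 and UMI limits.

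Helper CD4 T cells act on other immune cells through ligands of the tumour necrosis factor (TNF) family and through cytokines. CD40 ligand on the helper cell engages CD40 on dendritic and B cells, and the activated dendritic cell can then prime CD8 T cells. Memory and naive T cells keep the transcription factor TCF1, encoded by Tcf7, and express receptors that guide them to lymph nodes, while type 1 effector cells respond to interleukin 12 and make interferon gamma.

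Memory-like CD4 cells had medians of 5018.5 and 4720.5 UMIs per cell, with 728304 and 773254 UMIs in all. Levels below are CPM, the UMIs of a gene summed over the cells of a class in 1 library and scaled to equal totals. Foxp3-positive cells (at least 2 Foxp3 UMIs, no Cd8 UMI, 182 female and 278 male cells) and Cd8 cells served as comparison. Both classes also had to pass the Cd3e, Lyz2 and total UMI limits of the base cells. Their medians were deeper, at 6964 and 6363.5 UMIs for Foxp3-positive and 9244 and 8293 for Cd8 cells. By the marker rule alone, 514 female and 708 male cells were Foxp3-positive, with medians of 18886.5 and 16007.5 UMIs. The Foxp3-positive cells compared here were thus a shallower part of them. The sex labels held in the memory-like cells: Xist had 185 female and 0 male UMIs, and the Y-linked Eif2s3y had 0 female and 75 male UMIs. Of 16 barcodes found in both libraries, 1 was a memory-like cell, in the male library only.

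The label was checked against markers of other cells. Cd4 cannot check it, since the gate admits cells on Cd4 or Cd40lg, and its values describe the choice. Cd4, the co-receptor that binds MHC class II, stood at 308 and 316 CPM. A Cd4 UMI was present in 108 of 132 female and 131 of 148 male cells, and 24 female and 17 male cells entered on Cd40lg alone. B cell, macrophage, fibroblast, erythroid and epithelial or tumour marker lists had 0 or 1 UMI each in either library. Pecam1, which T cells also express, was the one endothelial marker present (45 and 55 UMIs). Markers of NK and gamma-delta T cells had at most 4 UMIs per list. Dendritic cell markers, some of which T cells share, had 38 and 48 UMIs, with 25 of the female ones in 1 cell. The list of type 2 innate lymphoid and mast cells had 106 female UMIs, 102 of them in 1 cell, and 4 male UMIs. The neutrophil list summed to 0 female and 224 male UMIs, all in 1 male cell of 15909 UMIs. That cell held 106 S100a8, 114 S100a9, 14 Cd3e and 0 Csf3r UMIs.

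Regulatory T cells that lost their Foxp3 counts by chance would enter the same gate, so 6 genes high in Foxp3-positive cells (Ikzf2, Il2ra, Ikzf4, Lrrc32, Gzmb and Itgae) were counted per cell. At least 3 of the 6 were detected in 2 of 132 female memory-like cells (1.52%, 0.184% to 5.37%) and 11 of 148 male cells (7.43%, 3.77% to 12.9%). In Foxp3-positive cells the same count was reached by 85.2% and 89.2%, at the deeper medians given above. It was also reached by 20.1% and 14.5% of Cd8 cells and by 5.19% and 11.5% of type 1 effector cells, so the count is not specific to regulatory T cells. No doublet caller was run, and doublets were limited only by the gate.

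The share of base cells that were memory-like was 49.4% for female (43.3% to 55.6%) and 60.7% for male cells (54.2% to 66.8%). Cells with 5 or 6 of the type 1 genes were 33 and 15 in the female library and 4 and 1 in the male library. Cells without any of them were 79 and 97. The lower female share also held when each base cell was first thinned to 2000 UMIs, at 63.0% against 80.4%. The intervals of the unthinned shares overlap, and with 1 library per sex the mouse, the sort and the sex cannot be told apart.

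**Figure D1:**
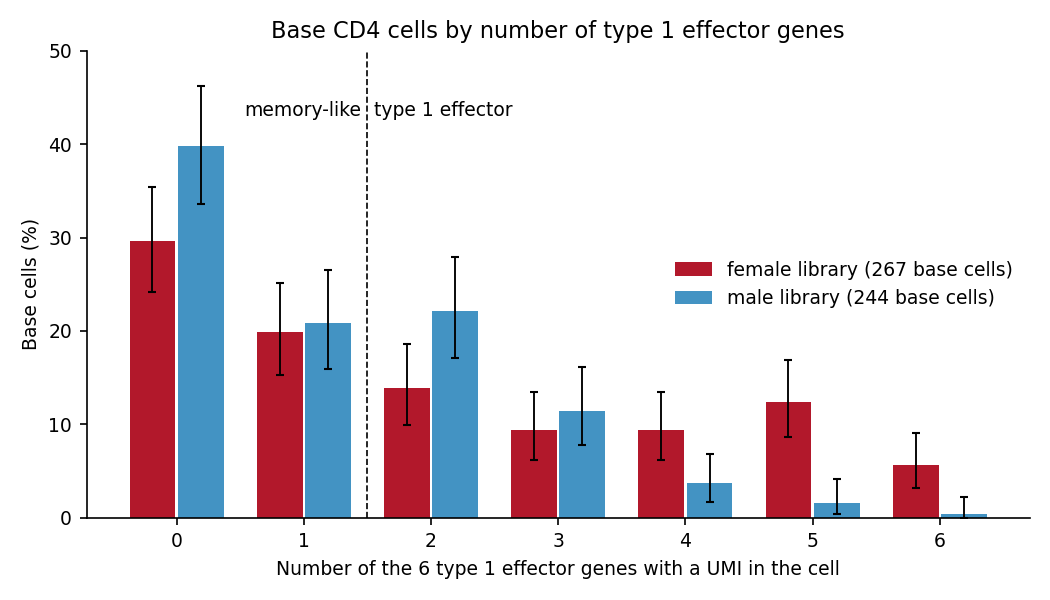
Percent of base CD4 cells (vertical axis) by how many of the 6 type 1 effector genes had a UMI (horizontal axis), for 267 female and 244 male cells, with exact 95% binomial intervals. Cells left of the dashed line are the memory-like cells, 132 female and 148 male, and female cells extend further to the right.

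The cut passes through a gradient. Just inside it, cells with 1 of the 6 genes had 298 female and 326 male CPM of Tcf7, and just outside it cells with 2 had 288 and 180 CPM. Ccl5, a chemokine of effector T cells, was at 821 and 669 CPM in cells with 1 gene and at 814 and 2153 CPM in cells with 2. Cells with 0 of the 6 genes stood apart from both, with 445 and 625 CPM of Tcf7 and 78.2 and 159 CPM of Ccl5.

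Memory-like CD4 cells carried the TNF-family ligands that define CD4 help, at levels far above Foxp3-positive and Cd8 cells. Cd40lg (chromosome X, 57212143 to 57224042, GRCm38), which encodes CD40 ligand, was at 187 and 144 CPM (136 and 111 UMIs). It stood at 5.50 and 15.2 CPM in Foxp3-positive cells and at 6.88 and 10.8 CPM in Cd8 cells, but the gate admits cells on Cd40lg and this gap is partly built in by the choice of cells. Tnfsf8 (chromosome 4, 63831308 to 63861347), the CD30 ligand, was at 356 and 352 CPM. That compares with 6.19 and 11.7 CPM in Foxp3-positive cells and 13.4 and 23.6 CPM in Cd8 cells. Tnfsf11 (chromosome 14, 78277445 to 78308043), which encodes RANKL, was at 292 and 318 CPM, against 8.94 and 23.5 CPM and 52.0 and 59.1 CPM.

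In both libraries Tnfsf8 and Tnfsf11, which the gate did not use, were higher in memory-like cells than in Foxp3-positive and Cd8 cells. The ligands did not separate memory-like from type 1 effector CD4 cells, where Cd40lg was at 197 and 130 CPM, Tnfsf8 at 320 and 207 CPM and Tnfsf11 at 218 and 366 CPM. Ltb, which encodes lymphotoxin beta, ran the other way: it was at 401 and 697 CPM in memory-like and at 959 and 1189 CPM in Foxp3-positive cells. Secreted helper cytokines were scarce. Il2 had 24 female and 9 male UMIs, Il21 had 4 and 3, and Il4 had 6 and 1.

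Of 13 genes on the list of help ligands and cytokines, 6 were measured against Foxp3-positive cells (at least 10 CPM in 1 class and 20 UMIs over both, in each library). Of these, 3 were at least 1.5-fold higher in both libraries (Cd40lg, Tnfsf8 and Tnfsf11) and 1 lower (Ltb), where 7.57% of 7500 genes were called higher and 17.9% lower (568 and 1346 genes, or 760 and 1100 with TMM scaling). Against Cd8 cells 4 of 8 were higher and 0 lower, where 9.78% of 7606 genes were called higher and 10.6% lower (744 and 804 genes, or 591 and 1012 with TMM scaling). Against type 1 effector CD4 cells 0 of 6 were higher and 1 lower, where 2.82% and 5.81% of 6279 genes were called. The rule that divides the CD4 cells used 6 genes of the same cells, so that comparison describes the choice.

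Ramp3 (chromosome 11, 6658521 to 6677475) encodes a single-pass protein that joins a calcitonin-family receptor to form an adrenomedullin receptor. Memory-like cells held it at 622 and 451 CPM (453 and 349 UMIs), against 109 and 71.9 CPM in Foxp3-positive and 68.5 and 41.8 CPM in Cd8 cells. Calcrl, the receptor chain with which it pairs, had 7 female and 14 male UMIs. Type 1 effector CD4 cells also held Ramp3, at 428 and 384 CPM.

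**Figure D2:**
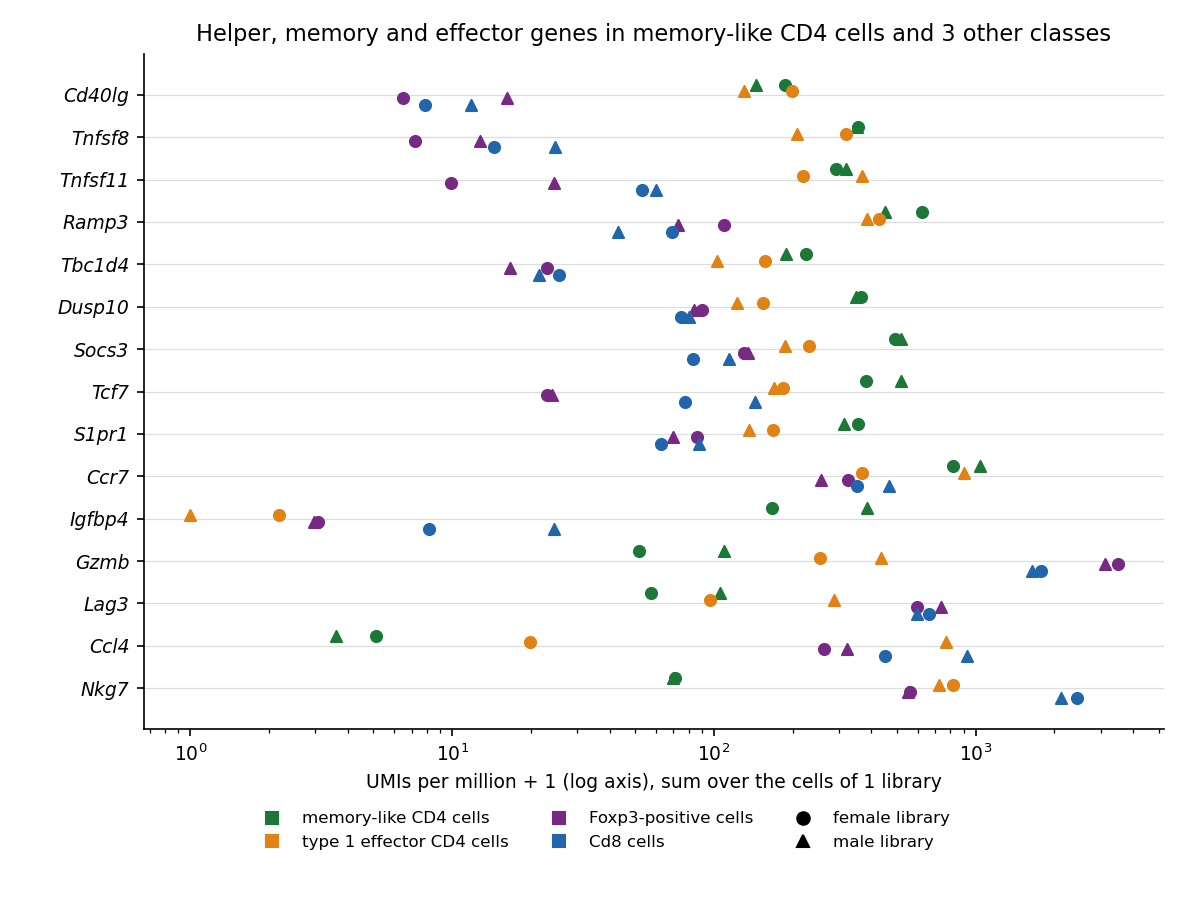
CPM plus 1 (horizontal log axis) for 15 genes in memory-like CD4 cells and 3 other classes, 1 point per library (circles female, triangles male). The ligands Cd40lg, Tnfsf8 and Tnfsf11 lie far to the right in both CD4 classes, Tcf7, Socs3 and Dusp10 are highest in memory-like cells, and Gzmb, Lag3 and Ccl4 are lowest there. Nkg7 is one of the 6 genes of the rule.

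The genes with the highest levels relative to both Foxp3-positive and Cd8 cells were taken by the least extreme of their 4 ratios. Higher than in both classes and both libraries were 243 of 7160 genes (3.39%), and lower 415 (5.8%). After Igfbp4 and Tnfsf8 came Tbc1d4, a regulator of glucose transporter traffic, at 224 and 188 CPM in memory-like cells. In Foxp3-positive cells it was at 22 and 15.7 CPM and in Cd8 cells at 24.7 and 20.6 CPM. Rflnb, an actin-binding protein (110 and 125 CPM), and St8sia1, which makes the ganglioside GD3 (78.3 and 64.7 CPM), followed with Ramp3 and Tnfsf11. Rflnb was also low in type 1 effector CD4 cells, at 10.6 and 12.2 CPM, and so was St8sia1, at 22.4 and 16.8 CPM.

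Inhibitors of signalling were among the 15 highest. Dusp10, a phosphatase of stress-activated kinases, was at 362 and 349 CPM, against 154 and 122 CPM in type 1 effector cells and at most 89.4 CPM in the other classes. Socs3, which restrains cytokine receptor signals, was at 492 and 519 CPM, against 229 and 186 CPM in type 1 effector cells. S1pr1, the receptor by which T cells leave tissue along sphingosine 1-phosphate, was at 353 and 314 CPM. It was at 85.2 and 68.5 CPM in Foxp3-positive and at 61.9 and 86.4 CPM in Cd8 cells. The remaining genes of this group were Nsg2, Tdrp, Tcf7, Aff3 and Asap1.

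Effector products lay at the other end. Ccl4, a chemokine of activated T cells, had 3 female and 2 male UMIs in memory-like cells, against 263 and 320 CPM in Foxp3-positive and 449 and 928 CPM in Cd8 cells. Gzmb, the protease granzyme B, was at 50.8 and 109 CPM, against 3486 and 3115 CPM in Foxp3-positive and 1781 and 1637 CPM in Cd8 cells. Lag3, an inhibitory receptor, was at 56.3 and 105 CPM, against 595 and 734 CPM and 660 and 596 CPM. Havcr2, which encodes TIM-3, had 4 and 8 UMIs. Other genes of this group were Fgl2, Ccl3, Csf1, Tmem163, Cst7, Mt1, Serpina3g, Rap2a, Hip1 and Anxa2.

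Genes of naive and central memory T cells were high as a group, beyond the share of all genes called. Of 18 listed genes, 11 were at least 1.5-fold higher than in Foxp3-positive cells in both libraries and 2 lower, with median log2 ratios of 1.63 and 1.57. The medians over all measured genes were -0.15 and -0.19. Against Cd8 cells 12 of 18 were higher and 1 lower (medians 1.37 and 1.04, all genes 0.01 and 0.00). Against type 1 effector CD4 cells 11 of 18 were higher and 0 lower (1.07 and 1.16, all genes -0.09 and -0.10), a comparison that describes the choice of cells. Over all genes, in the same order, 7.57%, 9.78% and 2.82% were called higher and 17.9%, 10.6% and 5.81% lower. Tcf7 (chromosome 11, 52252371 to 52283014) was at 380 and 516 CPM, against 22 and 23 CPM in Foxp3-positive, 76.6 and 142 CPM in Cd8 and 182 and 169 CPM in type 1 effector cells. Cd27, a costimulatory receptor, was among the genes lower than in Foxp3-positive cells, at 118 and 103 against 397 and 348 CPM. Some listed genes were high mainly in the 15 female and 34 male cells with an Igfbp4 UMI, described below. In the remaining memory-like cells Lef1 was at 93.1 and 141 CPM and Satb1 at 151 and 220 CPM. Type 1 effector cells held Lef1 at 110 and 65.6 CPM and Satb1 at 191 and 186 CPM. Tcf7 in the remaining cells was at 358 and 446 CPM. The list was not recounted against the other classes without the Igfbp4-positive cells.

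Lists of tissue exit and quiescence showed the same direction. Of 6 measured genes of tissue exit (S1pr1, S1pr4, Klf2, Klf3 and Ccr7 among them, in part the same genes), 4 were higher and 1 lower than in Foxp3-positive cells, and 5 were higher and 0 lower than in Cd8 cells. Of 10 quiescence genes, 5 and 6 were higher and 0 lower in these comparisons. Over all genes 7.57% were higher and 17.9% lower than in Foxp3-positive cells, and 9.78% were higher and 10.6% lower than in Cd8 cells. The 21 genes induced by tissue dissociation were in part higher too, 10 against Foxp3-positive and 10 against Cd8 cells, with 0 and 1 lower. Fos, an early response factor, stood at 658 and 639 CPM in memory-like cells and at 260 and 405 CPM in Foxp3-positive cells. The part of cell handling in these levels was not tested.

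Homing and cytokine receptors differed from those of the other classes gene by gene. Ccr7, the receptor for the T cell zones of lymph nodes, was at 818 and 1036 CPM, against 324 and 256 CPM in Foxp3-positive, 352 and 464 CPM in Cd8 and 366 and 901 CPM in type 1 effector cells. Its UMIs were unevenly spread, with 64.3% and 66.8% of them in the 14 female and 15 male cells richest in it. Outside the memory-like cells rich in Tnfsf8 and Tnfsf11, described below, Ccr7 was at 566 and 618 CPM. Ccr2, a receptor for inflammatory chemokines, was at 16.5 and 15.5 CPM, against 428 and 357 CPM in Foxp3-positive cells. Il6ra, the interleukin 6 receptor, was at 82.4 and 94.4 CPM, above the 22.7 and 31.8, 8.39 and 14.9, and 14.2 and 29.0 CPM of the other classes. Il2ra, the inducible chain of the interleukin 2 receptor, was at 35.7 and 34.9 CPM, against 678 and 558 CPM in Foxp3-positive cells.

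Costimulatory receptors were present at moderate levels. Icos, a receptor induced by activation, was at 490 and 429 CPM, against 1522 and 1464 CPM in Foxp3-positive and 397 and 347 CPM in Cd8 cells. Cd28, the main costimulatory receptor, was at 460 and 402 CPM and near the 461 and 424 CPM of type 1 effector cells. Of 10 costimulatory receptors measured, 1 was higher and 6 lower than in Foxp3-positive cells, and 2 were higher and 3 lower than in Cd8 cells. The shares of all genes were 7.57% and 17.9% against Foxp3-positive cells, and 9.78% and 10.6% against Cd8 cells. Pdcd1, the inhibitory receptor PD-1, was at 196 and 173 CPM, above the 77.7 and 133 CPM of Foxp3-positive and below the 691 and 532 CPM of Cd8 cells. Btla, another inhibitory receptor, was at 30.2 and 44.0 CPM on 22 and 34 UMIs. Of 16 regulatory T cell identity genes, 15 were lower and 1 higher than in Foxp3-positive cells, against 17.9% and 7.57% of all genes. Foxp3, which defines both classes, and Klrg1, a gene of the rule, were among those lower, so part of this count is built in.

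Transcription factors of several helper subsets were detected. Tbx21, which encodes T-bet, was at 45.3 and 51.7 CPM, against 154 and 159 CPM in type 1 effector cells. Gata3, a factor of type 2 helper cells and of T cells at large, was at 94.7 and 97 CPM. Tox, a factor of chronically stimulated and follicular T cells, was at 250 and 213 CPM, within 1.5-fold of the 195 and 159 CPM of Foxp3-positive cells. Cd8 cells held it at 80.4 and 88.8 CPM and type 1 effector cells at 88.6 and 145 CPM. Bcl2, which protects resting cells from death, was at 67.3 and 80.2 CPM, against 4.12 and 3.42 CPM in Foxp3-positive cells and 65.0 and 83.6 CPM in Cd8 cells.

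Glycolytic and cytotoxic genes were low. Of 18 glycolysis and hypoxia genes, 0 were higher and 11 lower than in Foxp3-positive cells, 1 was higher and 9 lower than in Cd8 cells, and 0 were higher and 9 lower than in type 1 effector CD4 cells. Over all genes, in the same order, 7.57%, 9.78% and 2.82% were higher and 17.9%, 10.6% and 5.81% lower. Aldoa, an aldolase of glycolysis, was at 693 and 785 CPM, against 1718 and 1907, 1642 and 1507, and 1466 and 1418 CPM. All 14 cytotoxic genes measured were lower than in Cd8 cells in both libraries, although Nkg7 belongs to the rule. Interferon gamma response genes were lower than in Foxp3-positive cells for 14 of 19 and higher for 0, but against Cd8 cells 4 were higher and 3 lower.

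Follicular helper genes were mixed. Of 10 measured, 4 were higher and 3 lower than in Foxp3-positive cells, and 7 were higher and 1 lower than in Cd8 cells. The shares of all genes were 7.57% and 17.9%, and 9.78% and 10.6%. Bcl6, the follicular helper lineage factor, was at 38.4 and 41.4 CPM, and Cxcr5, the receptor for follicles, was at 19.2 and 15.5 CPM. Izumo1r, which encodes folate receptor 4, was at 122 and 119 CPM, below the 338 and 361 CPM of Foxp3-positive cells. Il13, a type 2 cytokine, had 102 of its 103 female UMIs in 1 cell of 14067 UMIs, and the 15 female UMIs of Il17a, a type 17 cytokine, were in another. The Il13 cell held 1 of 6 female Il4 UMIs. It also held 217 of 235 female Areg UMIs, 10 Cd40lg UMIs, 4 Cd4 UMIs and all 47 Cxcl3 UMIs. The male library had 0 Il13 and 0 Il17a UMIs.

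Helper ligands were unevenly spread over the cells. The 14 female cells with most Tnfsf8 UMIs, a number set at 10% of the library's memory-like cells, held 75.3% of them, and the 15 such male cells held 70.6%. For Tnfsf11 these shares were 64.8% and 78.9%, for Cd40lg 52.9% and 55.9%, for Ramp3 39.1% and 46.1%, and for Tcf7 37.2% and 28.8%. One female cell alone held 88 of 259 Tnfsf8 UMIs and 1 male cell 52 of 272. The log2 ratio of female over male Tnfsf8 was 0.02, and it was -0.56 without that female cell and with that male cell kept.

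**Figure D3:**
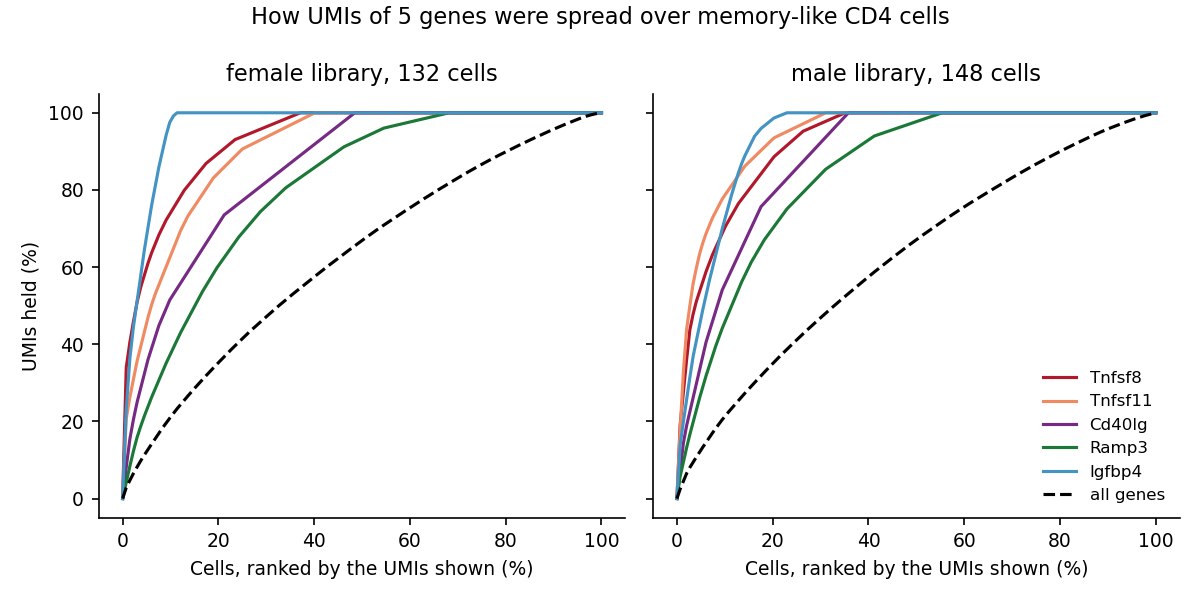
Cumulative percent of a gene's UMIs (vertical axis) held by memory-like CD4 cells ranked by their UMIs of that gene (horizontal axis, percent of cells), for 132 female and 148 male cells. The dashed line ranks cells by all their UMIs. Igfbp4 reaches its total in 15 female and 34 male cells, Tnfsf8 and Tnfsf11 are also held by few cells, and Ramp3 is spread more widely.

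A Cd40lg UMI was found in 64 of 132 female cells (48.5%, 39.7% to 57.3%) and in 53 of 148 male cells (35.8%, 28.1% to 44.1%). After thinning each cell to 2000 UMIs the shares were 25.9% and 20.5%. In type 1 effector CD4 cells the thinned shares were 27.4% and 21.3%, and in Cd8 cells 1.29% and 1.89%. Barcodes with at least 5 Krt8 UMIs and no Cd3e, which should lack the gene, had a Cd40lg UMI in 0 of 29 and 0 of 24 cases, which allows shares of up to 10.3% and 12.5%. The medians of these tumour-like barcodes were 52964 and 44362.5 UMIs.

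Detection of the ligands overlapped in part. Tnfsf11 was detected in 53.1% of female and 57.7% of male cells with Tnfsf8, and in 32.5% and 16.7% of cells without it. Among cells with Cd40lg, 50% and 43.4% also held Tnfsf11, against 30.9% and 24.2% of cells without Cd40lg. Deeper cells detect more of every gene, and the part of depth in these shares was not tested.

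A pair of cell kinds stood at opposite ends, and both were singled out after the values were seen. The first held Igfbp4 (chromosome 11, 99041244 to 99054392), a secreted binding protein of insulin-like growth factors. It was found in 15 of 132 female memory-like cells (11.4%, 6.50% to 18.0%) and 34 of 148 male cells (23.0%, 16.5% to 30.6%). Thinned to 2000 UMIs these shares were 10.5% of 128 and 20.6% of 144 cells. The gene was nearly absent from type 1 effector CD4 cells (1 of 135 and 0 of 96) and Foxp3-positive cells (1 of 182 and 3 of 278). In Cd8 cells it was found in 2.43% of female (1.78% to 3.24%) and 7.29% of male cells (6.07% to 8.67%), again lower in the female library. Of the positive memory-like cells, 14 of 15 female and 30 of 34 male cells had 2 or more UMIs. Tumour-like barcodes also held Igfbp4, at 908 and 886 CPM, and the part of their RNA in these shares was not tested.

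Igfbp4-positive cells had the transcripts of resting, naive-like T cells. Lef1, a partner of Tcf7 in the same factor family, was at 784 CPM in female Igfbp4-positive cells against 93.1 CPM in the other memory-like cells, and at 744 against 141 CPM in male cells. Satb1, a chromatin organiser of T cells, was at 964 against 151 CPM and 1040 against 220 CPM. Klf2, which drives S1pr1, was at 1526 against 757 CPM and 2175 against 1015 CPM. Also higher in both libraries were Atp1b1, Cd55, Dapl1, Ly6c1, Txk and Rflnb. Markers of antigen experience were low: Cd44, the memory adhesion receptor, was at 21.2 against 213 CPM and 20.8 against 198 CPM.

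The same cells held few helper ligands and activation receptors. Tnfsf8 had 1 UMI in the 15 female and 3 in the 34 male cells, and Tnfsf11 had 3 and 4. Tnfrsf4, the costimulatory receptor OX40, was at 95.4 against 1099 CPM and 26.0 against 874 CPM. Ctla4, Tigit and Itgb1 were each at or below 42.4 CPM in Igfbp4-positive cells of either library and at or above 239 CPM in the others. Ramp3 was at 95.4 against 700 CPM and 109 against 565 CPM. Of the female Igfbp4-positive cells, 1 cell of 11673 UMIs held the 1 Tnfsf8, all 3 Tnfsf11 and 5 of 9 Ramp3 UMIs. The male cell with S100a8 and S100a9 UMIs was also Igfbp4-positive. That cell held 3 of 4 Tnfsf11 and 10 of 21 Ramp3 UMIs of the male Igfbp4-positive cells. Ccr7, Il7r and S1pr1 were within 1.5-fold of the other cells in both libraries, for example Il7r at 329 against 327 CPM and 442 against 501 CPM.

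Cd40lg differed between the libraries. In female Igfbp4-positive cells it was at 212 CPM (20 UMIs, 7 of 15 cells), near the 183 CPM of the others, while in male Igfbp4-positive cells it was at 31.2 CPM (6 UMIs, 5 of 34 cells) against 181 CPM. A Cd40lg UMI alone admits a cell to the gate. For Igfbp4-positive cells the label of memory does not match the markers, since Cd44 was low and Lef1 and Satb1 were high.

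**Figure D4:**
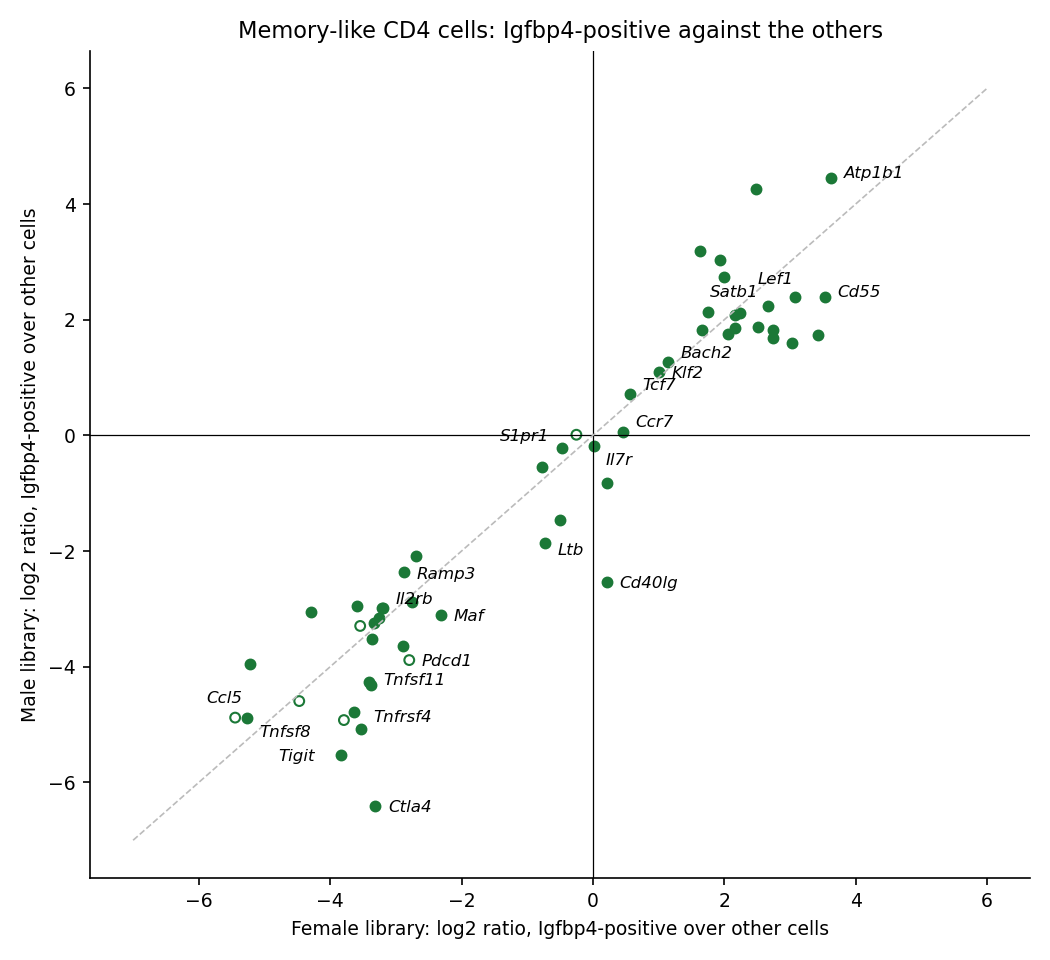
Log2 ratio of CPM in Igfbp4-positive over other memory-like cells, female library on the horizontal and male library on the vertical axis, 1 point per gene (open where a library had 0 UMIs, set to 3 counts in the positive cells). The named genes were chosen from these same cells. Most points lie near the dashed line of equal ratios, while Cd40lg lies near 0 in the female library (0.21) and at -2.53 in the male library.

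The second kind held at least 6 UMIs of Tnfsf8 and Tnfsf11 together and no Igfbp4: 21 female cells (15.9%, 10.1% to 23.3%) and 22 male cells (14.9%, 9.56% to 21.6%). A UMI threshold favours deep cells, and their medians were 7074 and 6870.5 UMIs against 4563 and 3991.5 UMIs in cells of neither kind. Ccr7 was at 1816 against 566 CPM in the other female cells and at 2552 against 618 CPM in male cells. Tnfrsf4 was at 2585 against 561 CPM and 1594 against 407 CPM. Il1r2, a decoy receptor of interleukin 1, was at 218 against 3.44 CPM and 497 against 29.7 CPM, with 21 of its 34 female UMIs in 1 cell. Ccr8, a chemokine receptor, was at 163 against 41.3 CPM and 389 against 41.2 CPM.

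Most Il2 UMIs were in these cells, 19 of 24 and 8 of 9, although only 6 female and 3 male memory-like cells held any and 14 of the female UMIs were in 1 cell. Penk, the precursor of enkephalin peptides, had 78 of 81 and 127 of 129 UMIs in them, but 73 of the female UMIs were in 1 cell. Klf2 was low, at 245 against 1012 CPM and 282 against 1585 CPM. Cd40lg was at 258 against 169 CPM and at 150 against 142 CPM. Tcf7 remained detectable, at 279 and 341 CPM.

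Between the sexes, 5 of 18 naive and central memory genes were at least 1.5-fold lower in the female library (Igfbp4, Satb1, Dapl1, Lef1 and Klf2), 0 were higher and 13 were not called. The median log2 ratio of female over male was -0.30, and the median bounds of the genes' intervals were -0.70 and 0.14. Dapl1 had 24 and 42 UMIs, with an interval that includes 0 (-1.51 to 0.04), and Cd27 (0.19), S1pr1 (0.17) and Id3 (0.14) were on the other side of 0. With fewer than 3 of the 6 type 1 genes allowed, 2 were lower and the median was -0.20. Over all 6604 measured genes the median was 0.04, with 683 higher (10.3%) and 562 lower (8.51%). Scaled by the median of ratios, these counts were 473 and 798. Klf2 was at 857 and 1304 CPM (log2 ratio -0.61, -0.75 to -0.46). Lef1 was at 183 and 291 CPM (-0.67, -0.99 to -0.36), Satb1 at 257 and 424 CPM (-0.72, -0.99 to -0.46), and Tcf7 at 380 and 516 CPM (-0.44, -0.67 to -0.22).

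Without Igfbp4-positive cells the median of the list was -0.27, and 3 of 17 genes were at least 1.5-fold lower. With these cells kept, 8.51% of all 6604 genes were lower, and the share without them is not given here. Lef1 was then at -0.60, Satb1 at -0.54 and Klf2 at -0.42, and this setting was chosen after the data were seen. Igfbp4 itself was at 166 CPM from 121 UMIs and 383 CPM from 296 UMIs (-1.20, -1.52 to -0.89). Il7r, the interleukin 7 receptor, was at 327 and 486 CPM (-0.57, -0.81 to -0.34), while S1pr1 was at 353 and 314 CPM (0.17, -0.09 to 0.43).

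**Figure D5:**
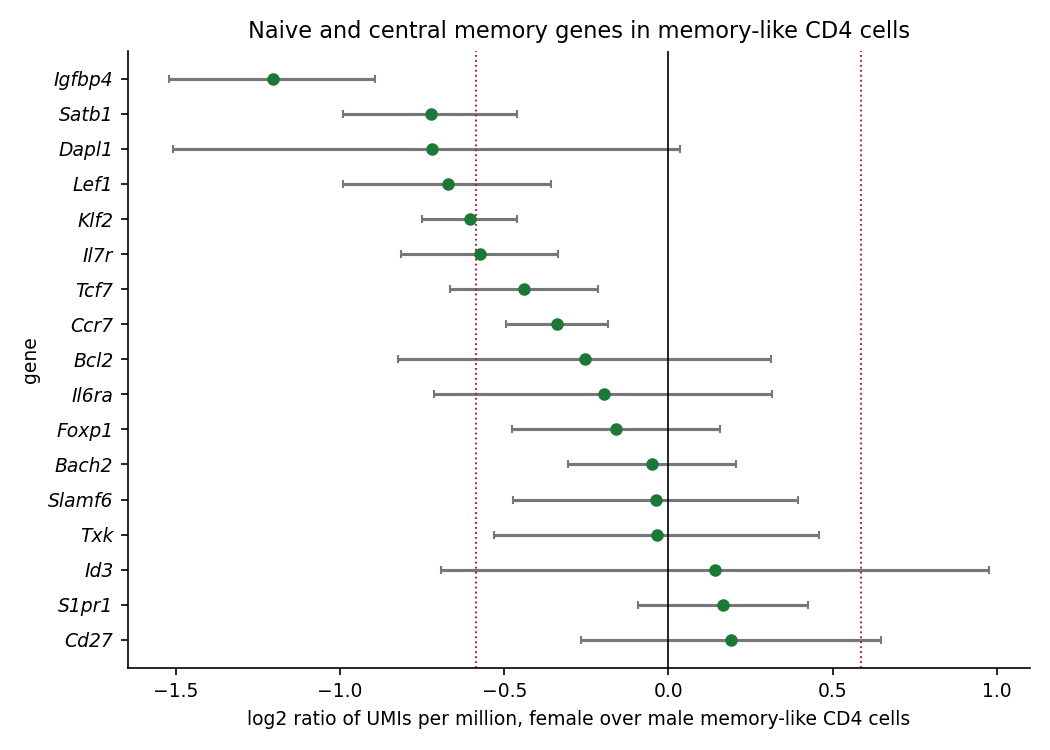
Log2 ratio of CPM, female over male memory-like CD4 cells, for 17 of the 18 naive and central memory genes, with exact 95% counting intervals. Red dotted lines mark 1.5-fold. Igfbp4 is lowest at -1.20, 5 genes lie left of the lower line, and none lies right of the upper line.

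Cd40lg had 136 female and 111 male UMIs in memory-like cells, a log2 ratio of 0.38 (0.01 to 0.75), so it was not at least 1.5-fold different. Without Igfbp4-positive cells the ratio was 0.02. With cells of fewer than 3 of the 6 type 1 genes it was 0.76. Of the 7 help ligands and cytokines measured between the sexes, 1 was higher in the female library (Il2) and 1 lower (Ltb). Over all 6604 genes 10.3% were higher and 8.51% lower. Ltb was at 401 and 697 CPM (-0.80, -1.01 to -0.59). The Il2 ratio of 1.5 (0.35 to 2.79) rests on 24 and 9 UMIs, and was 0.26 without the cell that held most of them.

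Ramp3 was higher in the female library by less than 1.5-fold, at 622 and 451 CPM (0.46, 0.26 to 0.67). Against 10.3% higher and 8.51% lower of all 6604 genes, 0 of the 8 measured Gs-coupled receptor and RAMP genes were higher and 4 lower. Among those, Ptger2, a prostaglandin E2 receptor, had 11 and 25 UMIs (-1.10, -2.27 to -0.02) and Ramp1 had 16 and 32 UMIs (-0.91, -1.88 to -0.01). Maf, a transcription factor of several helper subsets, was at 141 and 69.8 CPM (1.02, 0.53 to 1.52), and Ccr4, a chemokine receptor, was at 64.5 and 31.0 CPM (1.06, 0.32 to 1.83). Tnfrsf4 (0.55, 0.38 to 0.71) and Tigit (0.56, 0.24 to 0.88) were higher in the female library by less than 1.5-fold. Lag3 (-0.90, -1.47 to -0.34) and Gzmb (-1.10, -1.70 to -0.52) were lower, and Ebi3, a cytokine subunit of regulatory T cells, had 5 and 33 UMIs (-2.64, -4.35 to -1.27). The share of cells with at least 3 of the 6 genes counted above, Gzmb among them, differed in the same direction (1.52% and 7.43%), and its part in these ratios was not tested.

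Activation genes differed one by one. Nr4a2, a nuclear receptor induced by the T cell receptor, was at 249 and 136 CPM (0.87, 0.52 to 1.23), and Nr4a3 was at 306 and 203 CPM (0.59, 0.29 to 0.90). Nr4a1, of the same family, was at 463 and 519 CPM (-0.16, -0.38 to 0.05). Of 16 activation genes measured, 3 were higher in the female library and 0 lower, where 10.3% and 8.51% of all 6604 genes were.

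Of 8 type I interferon genes, 3 were higher in the female library and 1 lower, with Isg15, a ubiquitin-like modifier, at 229 and 145 CPM (0.66, 0.31 to 1.02) and Irf7 at 106 and 67.2 CPM (0.65, 0.13 to 1.19). Oasl2 was higher on 12 and 8 UMIs (0.67, -0.74 to 2.17) and Ifit1 lower on 11 and 20 UMIs (-0.78, -1.98 to 0.35), both with intervals that include 0. Of 18 interferon gamma response genes, 0 were higher and 4 lower. They were Gbp2, Gbp3 and Gbp5, guanylate-binding proteins, and Iigp1, an immunity-related GTPase with 8 and 36 UMIs (-2.08, -3.40 to -0.95). Gbp2 had 50 and 96 UMIs (-0.85, -1.38 to -0.35). Over all 6604 genes 10.3% were higher and 8.51% lower in the female library.

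Cell cycle genes were higher in the female library for 6 of 10 and lower for 0, but few cells carried them. Over all 6604 genes 10.3% were higher and 8.51% lower. Mki67, a marker of dividing cells, had 32 and 6 UMIs (2.50, 1.22 to 4.05), and without the cell with most of its UMIs the ratio was 0.54. Removal of the top female cell in the same way left Rrm2, a subunit of ribonucleotide reductase, at 0.39 in place of 2.76, and Tyms, thymidylate synthase, at -0.14 in place of 2.41. The heat shock gene Hspa1a was at 214 and 481 CPM (-1.17, -1.45 to -0.89) and Hspa1b at 238 and 455 CPM (-0.94, -1.21 to -0.67). Among cells with 0 of the 6 type 1 genes both ratios were near 0, at 0.087 and 0.044.

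Outside the lists, genes were named between the sexes when the ratio was at least 1.5-fold, its interval began at 25% or more, and no single cell of the higher library held more than 25% of the UMIs. The rule was met by 37 genes higher and 31 lower in the female library, on few UMIs each. Golga4, a golgin of vesicle tethering, had 29 and 7 UMIs (2.14, 0.91 to 3.57). Mid1, an X-linked ubiquitin ligase, had 84 and 37 UMIs (1.27, 0.70 to 1.87), and it was also at 130 and 77.8 CPM in Foxp3-positive, 58.5 and 29.8 CPM in Cd8 and 126 and 58.0 CPM in type 1 effector cells. The female level of Mid1 was thus the higher one in each of the 4 classes. Kpna2, a nuclear import receptor, had 46 and 19 UMIs (1.36, 0.56 to 2.22). Lower in the female library were Nck2, an adaptor of T cell receptor signalling, with 7 and 27 UMIs (-1.86, -3.30 to -0.63), and H1f0, a linker histone, with 10 and 35 UMIs (-1.72, -2.90 to -0.68). At 50 CPM or more, 188 genes were higher and 110 lower, 6.00% and 3.51% of 3134, so much of the list at lower levels rests on few counts.

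T cell receptor beta segments were spread over the memory-like cells. A Trbv segment could be assigned to 115 female and 121 male cells, over 19 and 21 segments. The most frequent was Trbv12-2 in 13.9% of female cells (8.17% to 21.6%) and Trbv3 in 13.2% of male cells (7.75% to 20.6%). In type 1 effector CD4 cells the most frequent segment took 25.2% (17.9% to 33.7%) and 19.5% (11.6% to 29.7%). Segments are shared by many clones, so these shares do not measure clonal expansion.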

How the data were processed

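UMI counts, whole numbers for each gene in each barcode, were deposited as matrices, and per the file headers Cell Ranger 7.0.1 wrote them. The submitters' processing notes name GRCm38 and Seurat 5 and give them no role. How cells were called is not given in the sources used here. Coordinates are from GENCODE M21 on GRCm38. A cell needed 500 detected genes and no more than 10% of its UMIs from mitochondrial genes, which left 3468 of 3658 female and 3519 of 3708 male barcodes. All barcodes together held 55880364 and 50946624 UMIs. The members and gene lists were chosen with earlier results of these data known.

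UMIs were summed per library and class in Python 3.11.15 (numpy 2.4.6, scipy 1.17.1, pandas 2.3.3, matplotlib 3.10.9) and compared as log2 ratios of CPM. Ratios have exact intervals for a ratio of Poisson counts and shares have Clopper-Pearson intervals. A count of 0 was set to 3 counts in a ratio. A gene was measured at 10 CPM in 1 group and 20 UMIs over both, and called at 1.5-fold. The steps were tested on simulated data. Named genes were the markers, up to 4 of the highest and 4 of the most different members of each of 23 lists, the 15 highest and 15 lowest by the least extreme ratio to both comparison classes (at least 50 CPM), and the 15 highest and lowest between the sexes (at least 20 CPM and 30 UMIs). Predicted, sex, receptor, mitochondrial and ribosomal genes were left out of the last 2 groups, and genes of the 2 kinds of cell at opposite ends were added after their values were seen. Intervals treat UMIs as independent, although UMIs of 1 cell are not, so the true error is larger.

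Alternatives were other cell filters and gates, thinning to 2000 UMIs, equal weight per cell, edgeR 4.0.16 TMM factors (R 4.3.3), the median of ratios, totals without ribosomal and mitochondrial genes, and other level limits. A few genes are not reported here by name.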

Additional observations from a re-analysis of the deposited data

Results flagged for a closer look

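Some genes lay at least 1.5-fold higher than a comparison class in one library and at least 1.5-fold lower in the other. These differences between the libraries were not tested. Most of the genes had been named for a difference between the sexes in the memory-like cells, so opposite signs follow in part from that choice. Values are log2 ratios of CPM, memory-like CD4 cells over the class, first female and then male.

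Over Foxp3-positive cells the genes were Baiap2, an adaptor of membrane protrusions (1.20 and -0.77), Cd1d1, which presents lipids (-1.07 and 0.69), Gtpbp1 (0.68 and -0.62), the transcription factor Rfx3 (-0.74 and 0.85) and Zfp672 (0.94 and -1.64). Over Cd8 cells they were Aldh9a1 (-0.68 and 0.63), Hibadh (-0.61 and 0.73), Ints9, a subunit of the Integrator complex (0.89 and -1.08), and Nck2 (-0.74 and 1.01).

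Over type 1 effector CD4 cells the interferon-induced genes were Gbp2 (-1.41 and 1.03), Gbp5 (-1.82 and 0.90) and Ifit1 (-1.28 and 1.5). Areg, a ligand of the epidermal growth factor receptor, gave 2.63 and -1.0, and Il13 gave 3.44 and -3.74. The female values of both rest on 1 cell, and the male Il13 value is a bound, since 0 UMIs were set to 3. The others were Golga4 (0.75 and -1.75), Gtpbp1 (1.22 and -1.24), Slc26a2 (-0.73 and 0.88), Top2a (1.13 and -0.65) and Txnip (-0.82 and 0.60).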

How the results depend on the processing

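No paired analysis was possible because there is 1 library per sex. Among values of the main comparisons recomputed under other settings, 126 moved by less than their counting interval or, for counts of genes, by less than 1.5 times, and 17 moved by more. Among the other recomputed values, which include ratios of named genes, 592 stayed within similar limits and 92 moved by more. A further 5, at least 1.5-fold in the main setting, changed sign. Of 47 gene ratios between the sexes, 12 moved and 3 such ratios changed sign among cells with 0 of the 6 type 1 genes. Sign changes of values below 1.5-fold were not counted apart. With genes of at least 50 CPM, 188 were higher and 110 lower between the sexes, 316 and 640 against Foxp3-positive cells, and 381 and 296 against Cd8 cells, since fewer genes were tested. Thinning left 334 higher and 753 lower against Foxp3-positive cells. TMM factors were 0.941 and 0.921 against Foxp3-positive and 1.08 and 1.06 against Cd8 cells. Among cells with 0 of the 6 genes the median of the help list between the sexes was -0.56, Hspa1a was at 0.087, Hspa1b at 0.044 and Il2 at -0.47 (3 and 5 UMIs), and the cause was not tested. The memory-like share of base cells was then 29.6% and 39.8%. It was 63.3% and 82.8% with fewer than 3 genes allowed, and 63.0% and 80.4% after thinning. Cd40lg between the sexes was 0.76 with fewer than 3 genes and between 0.02 and 0.50 otherwise. The male Igfbp4 share was 33.0% at 0 of 6 genes, in a setting chosen after the data were seen, as were those without Igfbp4-positive cells and without cells holding regulatory T cell genes. Without the cell richest in the gene Areg was at -2.19 and Tyms at -0.14, and Il13 had no ratio. Leaving out a library was not possible with 1 per sex. Dropping the CPM limit, tried between the sexes only, changed no count there, because 20 UMIs over both libraries already imply it. Depth limits the genes named by few UMIs, and values from 10 to 30 UMIs have wide intervals.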

Other observations

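Cells with UMIs of more than 1 Trbv segment were 15.9% of female and 9.46% of male memory-like cells, against 32.2% and 30.8% of Cd8 cells, which had deeper medians. A segment needed 2 UMIs to be assigned.

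Penk was held by 5 female and 6 male memory-like cells, with 73 of 81 and 66 of 129 UMIs in the richest cell of each library. Ccl5 was also held by few cells, with 98.6% and 97% of its 294 and 267 UMIs in the 14 and 15 richest. Il1r2 had 34 and 101 UMIs in 6 and 10 cells. These levels describe single cells more than the class.

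The cell cycle UMIs of the female library were held largely by single cells as well. The cell richest in Mki67 held 75% of 32 UMIs, and the richest in Rrm2 held 81.2% of 32.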
